A study of Mus musculus and Rattus norvegicus with 18 samples.

Results

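Mouse primary tubular epithelial cells (TECs) held with TGF-β1 and narciclasine together were set against untreated TECs, which shows what still stood away from the untreated state when both agents were present. The comparison rests on 3 libraries with both agents and 3 control libraries of the 18 in the series, and on 13244 of the 22322 genes in the mouse table, those that passed a filter on low counts by group. Cells with both agents were starved of serum for 6 h, kept in 20 nM narciclasine for 2 h and then held for 24 h after TGF-β1 was added at 5 ng/ml. A second group of 3 TEC libraries had TGF-β1 alone, and control cells had serum-free medium with neither agent. All TECs, controls included, were grown in DMEM/F12 with serum to about 70% confluency and were starved the same way. The records used here give control cells 6 h of starvation and 0 h of stimulation. Whether their total time in serum-free medium matched that of treated cells cannot be shown from them. The same groups were made from NRK49F, an established rat kidney fibroblast line. No library had narciclasine alone, so effects of the drug by itself and effects that need TGF-β1 cannot be told apart. The design text calls the libraries biological replicates but does not say whether the TECs came from separate animals, so the p-values speak for the spread among these libraries, which may be technical.

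TGF-β binds a pair of receptor kinases that phosphorylate SMAD2 and SMAD3, and these enter the nucleus with SMAD4 and switch on matrix genes and their own inhibitor SMAD7. In kidney tubules the pathway is known for arrest of division, loss of transport functions and secretion of matrix, which are hallmarks of renal fibrosis. Narciclasine is an alkaloid from Narcissus bulbs that occupies the peptidyl transferase centre of the ribosome and inhibits protein synthesis.

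Libraries with both agents held 18432332 to 22732412 counts, those with TGF-β1 alone 17217290 to 22867693 and control libraries 16652016 to 25192716. Transcripts encoded by mitochondria took 3.94 to 4.02% of counts with both agents, 5.36 to 5.75% with TGF-β1 alone and 4.32 to 4.60% in control cells. Marker counts below follow the rule for a called gene given in the next paragraph, by which 32.4% of all tested genes were higher and 30.6% lower. Of 13 tubule markers 12 were tested, of which 7 were higher and 4 lower, and their summed level was 7538 to 7678 CPM with both agents and 5947 to 6017 CPM in control cells. Among them were Pax8 at 114 CPM with both agents and 238 CPM in control cells, Cdh16 at 442 CPM with both agents and 706 CPM in control cells and Lrp2 at 129.8 CPM with both agents and 105 CPM in control cells, while the proximal phosphate carrier Slc34a1 had at most 9 counts in any library. The keratins Krt8 and Krt18 had the highest levels in this list and so weigh most in its sum. Krt8 had 3082, 3134 and 3189 CPM with both agents and 1768, 1784 and 1823 CPM in control cells. Krt18 had 1996, 2029 and 1983 CPM with both agents and 1660, 1656 and 1646 CPM in control cells. Of 18 macrophage and leukocyte markers, 14 were tested, of which 1 was higher and 9 lower; their summed level was 31.4 to 31.8 CPM with both agents and 48.8 to 50.1 CPM in control cells. Cd3e was at 0 throughout, and C1qa had 1, 0 and 1 counts with both agents, 20, 17 and 29 with TGF-β1 alone and 14, 11 and 11 in control cells. Csf1r, a large part of the sum with both agents, went the other way from control. It had 12.2, 13.8 and 11.8 CPM with both agents, 11.3, 11.9 and 10.3 CPM with TGF-β1 alone and 10.6, 9.13 and 9.13 CPM in control cells. In such bulk samples, fewer cells of a type and less RNA per cell cannot be told apart. Of 14 fibroblast and pericyte markers 10 were tested, of which 3 were higher (30%) and 4 lower (40%), near the shares over all genes. They summed to 227 to 245 CPM with both agents and 149.9 to 154 CPM in control cells. In that list Cspg4, Col1a1 and Pdgfra were higher and Col1a2 and Col3a1 were among those lower, with Dcn, Lum and Fap near 0. Endothelial markers had 3 higher and 1 lower of 12, and 1 higher and 3 lower when scaled by total counts, and summed to 166 to 177 CPM with both agents and 159.6 to 162 CPM in control cells. The part of these cells in the results was not tested.

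Of the 13244 genes, 8349 (63.0%) differed between cells with both agents and control cells at an adjusted p under 0.05, the rule for a called gene throughout (edgeR quasi-likelihood test, Benjamini-Hochberg adjustment over all genes tested). Here 4296 (32.4%) were higher and 4053 (30.6%) were lower, so 51.5% of the calls were higher. Scaled by total counts alone, 36.9% of the 8607 calls were higher, and the median gene then stood at −0.10 on the log2 scale. Differences of at least 2-fold numbered 1562 (11.8%), 652 higher and 910 lower, and 381 reached 4-fold, 189 higher and 192 lower. The 3 libraries with both agents did not overlap the 3 control libraries in 8787 genes (66.3%). Of the 4895 genes not called, 2329 had a 95% interval within 1.2-fold of control, and for 637 the interval reached past 2-fold, so those were not resolved. On the first principal component of log2 CPM, which held 66.2% of the variance, the libraries with both agents lay at −18.1 to −16.9, those with TGF-β1 alone at −38.5 to −37.7 and control libraries at 55.5 to 55.9. On the second, which held 16.8%, the libraries with both agents lay at 25.6 to 29.0, those with TGF-β1 alone at −22.4 to −20.4 and control libraries at −6.53 to −5.30. Counts are given as CPM, counts scaled to a common library total. Levels are not divided by gene length and are compared only within a gene.

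Gene lists are described by how many tested members were called each way, read against these background shares. Across 36 lists the share of members called lower was highest in the 2 cell division lists, followed by cholesterol, NRF2, fatty acid synthesis and glycolysis genes, and the share called higher was highest in contractile genes, collagens and TGF-β pathway genes. No test of the lists themselves was made. Changes of single genes and medians below are log2 differences between cells with both agents and control cells, unless another comparison is named.

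**Figure D1:**
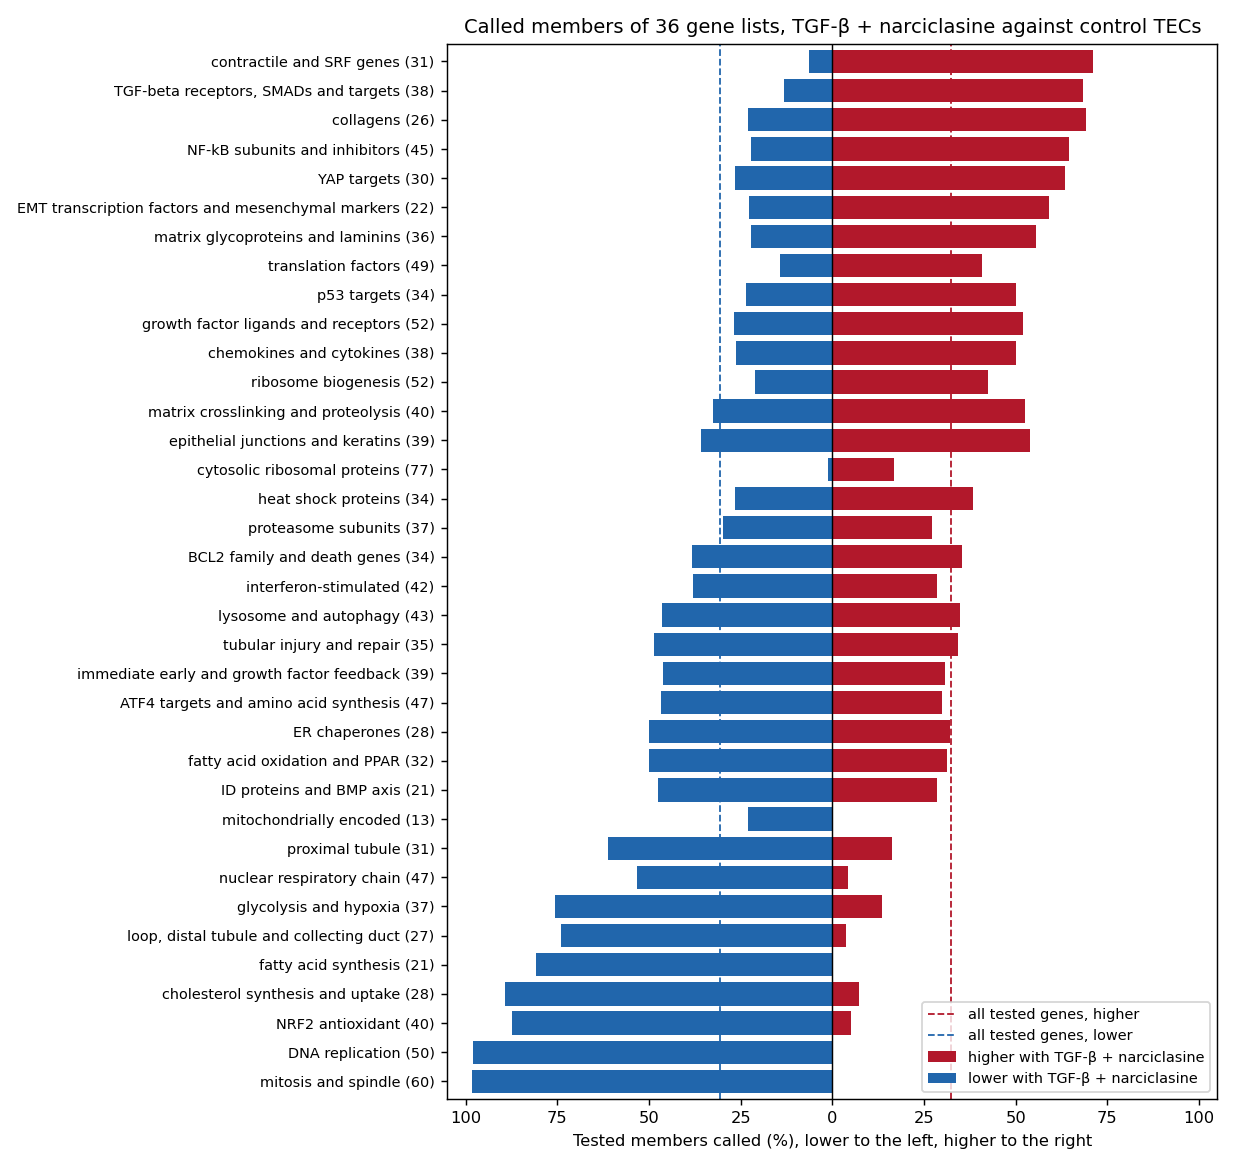
Share of tested members called higher (red, to the right) or lower (blue, to the left) with TGF-β and narciclasine than in control TECs, for 36 gene lists with the number of tested members in brackets. Dashed lines mark the share over all tested genes, 32.4% higher and 30.6% lower; mitosis and DNA replication genes lie at the bottom with 98.3% and 98% of members lower.

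Genes of the TGF-β pathway were mostly higher with both agents than in control cells. In the list of TGF-β receptors, SMADs and their targets, 26 of 38 tested members were higher and 5 lower, with a median log2 difference of 0.41.  Il11 (GRCm38 chromosome 7, 4772373 to 4782859, minus strand), a cytokine that acts downstream of TGF-β in fibroblasts, had 256, 245 and 261 CPM with both agents, 264, 255 and 252 CPM with TGF-β1 alone and 23.7, 25.3 and 26.1 CPM in control cells. The libraries with both agents overlapped those with TGF-β1 alone and lay above all control libraries, by 3.34 (SE 0.0395, adjusted p = 1.07e-41). Against TGF-β1 alone the log2 difference of cells with both agents was −0.02 for Il11 (SE 0.0303, adjusted p = 0.659). Both comparisons use the same libraries with both agents, so their values stand side by side and are not independent.

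Smad7, the inhibitory SMAD, had 72.6, 75.5 and 78.0 CPM with both agents, 97.8, 92.8 and 93.7 CPM with TGF-β1 alone and 30.3, 31.8 and 31.6 CPM in control cells. The 3 groups did not overlap, with cells given both agents between the others, 1.27 above control (SE 0.0469) and −0.33 from TGF-β1 alone (adjusted p = 7.96e-09). Skil, a SMAD corepressor, rose by 1.23, the SMAD-binding membrane protein Pmepa1 by 1.06, the ubiquitin ligase Smurf1 by 0.84 and Klf10, an early TGF-β response gene, by 1.11. Nedd9, an adaptor of focal adhesions, rose by 2.17 and Fstl3, which binds activin, by 1.85. Among ligands, Tgfb2 rose by 1.13 and Inhba, an activin subunit, by 1.45, while Tgfb1 rose by 0.21 (adjusted p = 0.000728), a call lost when libraries were scaled by total counts (adjusted p = 0.0633). Of the receptors, Tgfbr1 rose by 0.91, and Tgfbr2 fell to 173 CPM with both agents, against 435 CPM in control cells, a log2 change of −1.33. Gdf15, a stress-induced member of the ligand family, also fell, with 52.7, 56.2 and 59.8 CPM with both agents, 110.0, 106 and 98.5 CPM with TGF-β1 alone and 224, 221 and 228 CPM in control cells. The 3 groups were apart in that order, and the change from control was −2.0004 (SE 0.0404).

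ID proteins, which block basic helix-loop-helix factors and are targets of bone morphogenetic proteins (BMPs), and other BMP axis genes had 6 higher and 10 lower of 21 tested, with a median of −0.39. Id2 had 4.02, 4.59 and 3.75 CPM with both agents, 4.07, 4.23 and 5.54 CPM with TGF-β1 alone and 26.3, 28.7 and 27.1 CPM in control cells. Both treated groups overlapped each other and lay below every control library, and the change from control was −2.73 (SE 0.105). Fst, follistatin, which captures activin, changed by −2.88, with means of 31.1 CPM with both agents, 29.9 CPM with TGF-β1 alone and 229.6 CPM in control cells, and Bmp6 changed by −1.77. The receptor genes Bmpr2 and Acvr1 rose by 1.33 and 1.10.

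Matrix genes were mostly higher, but fibrillar collagens were split. Of 26 tested collagens 18 were higher and 6 lower, with a median of 0.66. Col1a1 (GRCm38 chromosome 11, 94936224 to 94953042, plus strand), one chain of type I collagen, had 74.5, 83.4 and 79.5 CPM with both agents, 209, 218 and 193 CPM with TGF-β1 alone and 34.8, 34.4 and 36.5 CPM in control cells. All 3 groups were apart, with cells given both agents 1.17 above control (SE 0.0512, adjusted p = 1.09e-18) and −1.38 from TGF-β1 alone. Col1a2 (GRCm38 chromosome 6, 4504814 to 4541544, plus strand), the partner chain, had 15.4, 15.9 and 17.6 CPM with both agents, 91.9, 85.3 and 86.2 CPM with TGF-β1 alone and 26.0, 25.1 and 26.5 CPM in control cells. Here cells with both agents lay below both other groups, −0.67 from control (SE 0.0658, adjusted p = 1.47e-11). Col3a1, the type III chain, had 6.35, 5.94 and 7.33 CPM with both agents, 12.4, 12.4 and 13.6 CPM with TGF-β1 alone and 8.82, 10.0 and 9.61 CPM in control cells, the lowest group again being that with both agents. Its change from control was −0.55 (SE 0.111, adjusted p = 4.39e-05).

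Several other collagens rose more than 2-fold. Col7a1, which forms anchoring fibrils, had 333, 340.5 and 335 CPM with both agents, 446, 467 and 434 CPM with TGF-β1 alone and 69.2, 65.4 and 64.6 CPM in control cells. All libraries with both agents exceeded every control library and lay below those with TGF-β1 alone, for a change of 2.34 from control (SE 0.0323). Col27a1, a fibrillar collagen, rose by 1.96, Col12a1 by 1.83 and Col16a1 by 1.75. Among basement membrane collagens, Col4a1, Col4a2, Col4a3 and Col4a4 rose by 0.45, 0.44, 0.69 and 0.51, whereas Col4a5 changed by −0.68 and Col4a6 by −1.37.

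Fn1 (GRCm38 chromosome 1, 71585520 to 71653200, minus strand), fibronectin, had 13153, 13948 and 13218 CPM with both agents, 16432, 17065 and 15945 CPM with TGF-β1 alone and 3239, 3158 and 3288 CPM in control cells. The groups were apart, with cells given both agents 2.06 above control (SE 0.0257, adjusted p = 2.5e-25) and −0.29 from TGF-β1 alone (SE 0.0246). Of 36 matrix glycoproteins and laminins, 20 were higher and 8 lower. Tenascin C, Tnc, rose by 1.86, and the laminin chains Lama3 and Lamb3, found in epithelial basement membranes, rose by 1.82 and 0.76. Ltbp1, which holds latent TGF-β in the matrix, rose by 1.01. Spp1, osteopontin, stood out in the other direction, with 1800.4, 1829 and 1775 CPM with both agents, 3723, 3736 and 3817 CPM with TGF-β1 alone and 7221, 7362 and 7394 CPM in control cells. No library of one group overlapped another, and the change from control was −2.02 (SE 0.0201, adjusted p = 3.22e-44). The nidogens Nid1 and Nid2, which link laminin to type IV collagen, changed by −1.48 and −1.08. Postn, periostin, was at 2.78 CPM with both agents and 2.15 CPM in control cells and was not called (adjusted p = 0.0726). It was called without replicate 2 of the cells with both agents (adjusted p = 0.0349) and without control replicate 1 (adjusted p = 0.0275).

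Genes that crosslink and cut the matrix had 21 higher and 13 lower of 40. The crosslinking oxidases Lox, Loxl2 and Loxl4 rose by 1.98, 1.69 and 1.02, and Bmp1, the procollagen C-proteinase, by 1.17. Mmp9, a gelatinase, had 99.9, 109 and 109 CPM with both agents, 281, 289.8 and 274 CPM with TGF-β1 alone and 20.2, 18.5 and 21.8 CPM in control cells. The middle position of the cells with both agents held in each library, 2.39 above control (SE 0.0495). Plat, the tissue plasminogen activator, had 44.8, 43.5 and 43.0 CPM with both agents, 114, 108 and 112 CPM with TGF-β1 alone and 242, 248 and 247 CPM in control cells. Cells with both agents were lowest, −2.49 from control (SE 0.0358) and −1.35 from TGF-β1 alone. Adamts4, an aggrecanase, rose by 2.07, while Adamts1 and Adamts5 changed by −1.09 and −1.04. Tgm1, a transglutaminase of keratinising epithelia, fell to 2.09 CPM with both agents, against 23.7 CPM in control cells (−3.50).

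**Figure D2:**
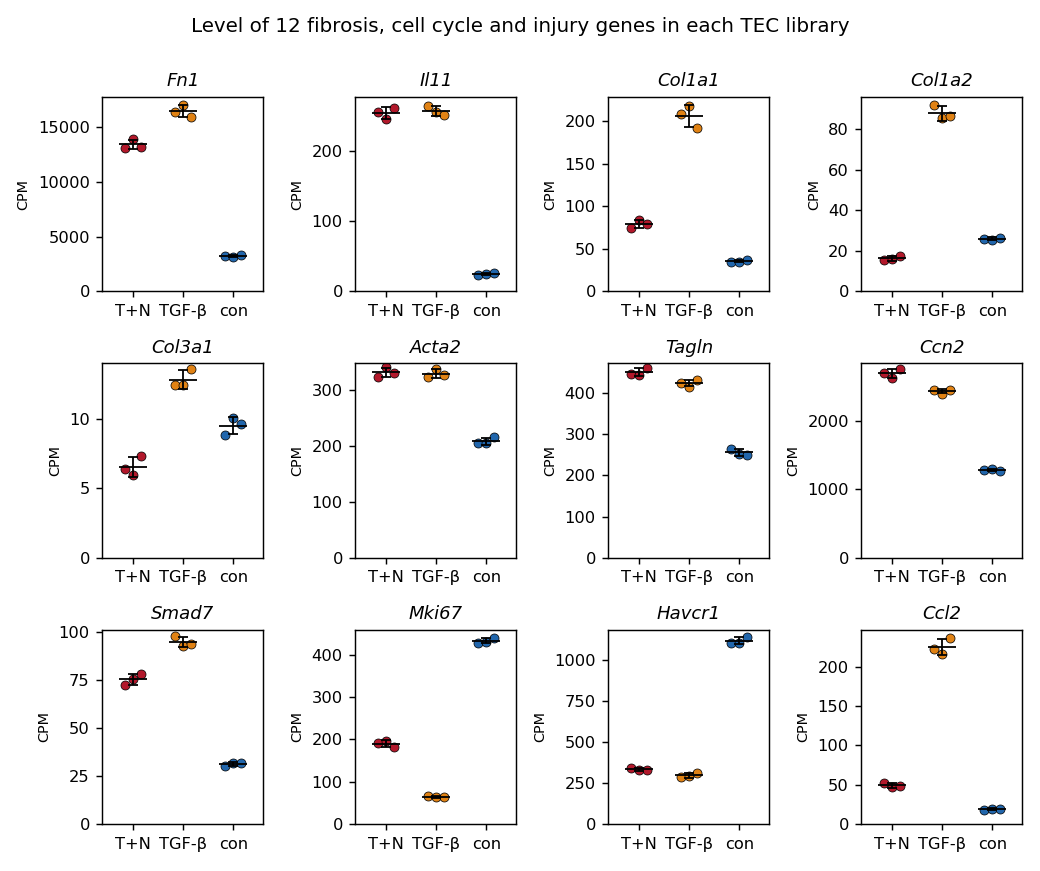
CPM of 12 genes in each TEC library (points), with the group mean and SD (bars), for TGF-β with narciclasine (T+N), TGF-β alone and control (con). Il11 and Acta2 lie at the level of TGF-β alone, Col1a2 and Col3a1 lie below control, and Mki67 lies between the other groups.

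Contractile genes, many of them targets of serum response factor, had 22 higher and 2 lower of 31 tested, with a median of 0.24. Acta2, smooth muscle actin, had 324, 341 and 331 CPM with both agents, 323, 338 and 327 CPM with TGF-β1 alone and 205, 205 and 216 CPM in control cells. Both treated groups overlapped and lay above control, by 0.67 for both agents (SE 0.0283, adjusted p = 6.43e-23). Tagln, transgelin, had 447, 444 and 462 CPM with both agents, 426, 416 and 431 CPM with TGF-β1 alone and 265, 253 and 250.4 CPM in control cells, for a rise of 0.82 (SE 0.0265). Mrtfa, the actin-regulated cofactor of serum response factor, rose by 0.97, Actn1 by 0.68 and the caldesmon gene Cald1 by 0.71. Itga5, the fibronectin receptor subunit, rose by 1.67, whereas Mylk, myosin light chain kinase, changed by −1.33. The members Cnn1, Flnc and Smtn stood above both other groups in every library, Flnc with means of 438 CPM with both agents, 211 CPM with TGF-β1 alone and 330.2 CPM in control cells.

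Of 30 targets of YAP, the coactivator of the Hippo pathway, 19 were higher and 8 lower. Ccn2, connective tissue growth factor, had 2704, 2626 and 2759 CPM with both agents, 2446, 2397 and 2446 CPM with TGF-β1 alone and 1275, 1298 and 1268 CPM in control cells. Every library with both agents exceeded the others, 1.07 above control (SE 0.0211) and 0.15 above TGF-β1 alone (adjusted p = 9.01e-08). Ccn1 rose by 0.83, tissue factor F3 by 1.06 and the cofactor Vgll3 by 1.24. Genes of epithelial-mesenchymal transition (EMT) had 13 higher and 5 lower of 22. Snai1 and Snai2, repressors of E-cadherin, were low and rose by 1.198 and 0.72; the call of Snai2 (adjusted p = 0.0104) ended under the DESeq2 test (adjusted p = 0.0522) and without replicate 2 of the cells with both agents (adjusted p = 0.0650). Zeb1 rose by 0.99, Zeb2 by 0.63, the integrin subunit Itgb3 by 1.61 and the adhesion molecule Ncam1 by 1.34. Sox9, active in injured tubules, rose by 1.26, with means of 105 CPM with both agents, 69.9 CPM with TGF-β1 alone and 43.9 CPM in control cells. Vim, vimentin, rose by 0.32 (SE 0.0236).

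Epithelial adhesion genes moved in both directions. Cdh1 (GRCm38 chromosome 8, 106603351 to 106670246, plus strand), E-cadherin, had 1115, 1117 and 1108 CPM with both agents, 1116, 1135 and 1102 CPM with TGF-β1 alone and 815, 809 and 823 CPM in control cells. It was higher than control in every library of both treated groups, by 0.45 with both agents (SE 0.0212, adjusted p = 2.42e-21). Of 39 junction and keratin genes 21 were higher and 14 lower. The desmosome genes Dsp, Jup, Pkp1 and Pkp2 rose by 1.203, 0.86, 3.31 and 1.01, and the keratins Krt17 and Krt8 by 2.34 and 0.81. Claudins were divided, since Cldn4 rose by 1.07 while Cldn2, a pore of the proximal tubule, changed by −3.19 and Cldn8, a claudin of the distal nephron, by −5.03. Krt4, a keratin of stratified epithelium, had 0.179, 0.0540 and 0.0551 CPM with both agents, 0.0457, 0 and 0 CPM with TGF-β1 alone and 7.97, 9.58 and 8.99 CPM in control cells. No treated library came near control, and the change with both agents was −6.37 (SE 0.295).

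Transport genes that define tubule segments were mostly lower. Of 48 proximal tubule genes 31 were tested, of which 5 were higher and 19 lower, with a median of −0.87; of 36 genes of the loop, distal tubule and collecting duct 27 were tested, of which 1 were higher and 20 lower, with a median of −0.94. Slc17a1, a phosphate and urate transporter, had 0.671, 0.702 and 0.882 CPM with both agents, 2.38, 1.87 and 1.997 CPM with TGF-β1 alone and 8.88, 9.17 and 9.32 CPM in control cells. The groups were apart, with cells given both agents the lowest at −3.60 from control (SE 0.185). The water channel Aqp1 changed by −2.94, the amino acid carrier Slc6a18 by −2.93, the neprilysin gene Mme by −1.02 and Hnf4a, a factor of proximal identity, by −1.21. In distal segments the kinase gene Wnk4 changed by −2.56, the potassium channel genes Kcnj1 and Kcnj10 by −2.69 and −1.53, the vasopressin receptor Avpr2 by −2.26 and the sodium channel subunit Scnn1a by −1.15. Pax8, a transcription factor of the nephron lineage, had 109, 115 and 117 CPM with both agents, 76.9, 77.6 and 74.7 CPM with TGF-β1 alone and 235, 236 and 243 CPM in control cells. Its libraries with both agents lay between the other groups, −1.06 from control.

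Exceptions in these lists included the gene with the largest rise among called genes of at least 5 CPM whose groups did not overlap. Slc9a3 (GRCm38 chromosome 13, 74121457 to 74169442, plus strand), the sodium-proton exchanger NHE3 of the proximal brush border, had 7.42, 6.92 and 7.82 CPM with both agents, 4.25, 3.57 and 4.31 CPM with TGF-β1 alone and 0.228, 0.150 and 0.430 CPM in control cells. The 3 groups were apart, and the rise from control was 4.79 (SE 0.243, adjusted p = 2.64e-20). Ass1, an enzyme of arginine synthesis, rose by 2.04, Slc7a7 by 1.55 and Hsd11b2, which protects the mineralocorticoid receptor from glucocorticoids, by 2.01. Lrp2, the endocytic receptor megalin, rose by 0.31 over control and by 1.09 over TGF-β1 alone, with means of 129.8 CPM with both agents, 61.1 CPM with TGF-β1 alone and 105 CPM in control cells.

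Genes of tubular injury and repair were divided, 12 higher and 17 lower of 35. Havcr1 (GRCm38 chromosome 11, 46735080 to 46779578, plus strand), the injury marker KIM-1, had 343, 326 and 325 CPM with both agents, 284, 292 and 311 CPM with TGF-β1 alone and 1102, 1103 and 1139.9 CPM in control cells. Both treated groups were below every control library, with a change of −1.75 for both agents (SE 0.0282, adjusted p = 3.89e-32). Clu, clusterin, had 8915, 8820.1 and 9179 CPM with both agents, 14943, 15111 and 14584 CPM with TGF-β1 alone and 3633, 3569 and 3621 CPM in control cells, which placed cells with both agents between the others (1.31 from control). Lcn2, lipocalin-2, had 549, 540.0 and 579 CPM with both agents, 1401, 1386 and 1417 CPM with TGF-β1 alone and 657, 679 and 654 CPM in control cells. The cells with both agents were under every control library, with a change of −0.25 (SE 0.0244). Prom1, a marker of immature tubular cells, changed by −1.27.

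Genes of cell division were lower almost without exception. Of 60 genes of mitosis and the spindle 59 were lower and none higher, with a median of −1.15, and of 50 DNA replication genes 49 were lower and none higher, with a median of −0.88. The medians for TGF-β1 alone against the same control libraries were −2.36 and −1.64. Mki67 (GRCm38 chromosome 7, 135689784 to 135716361, minus strand), a marker of cycling cells, had 192, 197 and 181 CPM with both agents, 65.7, 62.6 and 63.5 CPM with TGF-β1 alone and 428, 430.3 and 439.6 CPM in control cells. Cells with both agents lay between the others in every library, −1.19 from control (SE 0.0291, adjusted p = 4.96e-31) and 1.57 from TGF-β1 alone. Among mitotic genes, the kinase Aurkb changed by −1.69, Birc5, its partner survivin, by −1.67, the phosphatases Cdc25b and Cdc25c by −1.65 and −1.61, and cyclin A2, Ccna2, by −1.58. The 1 mitosis gene not called was Pttg1, securin, at 14.5 CPM with both agents and 13.8 CPM in control cells. In the replication list thymidine kinase, Tk1, changed by −2.59, the repressor E2f8 by −1.69, cyclin E1, Ccne1, by −1.54 and the loading factor Cdc6 by −1.42. Cdkn1a, the inhibitor p21, rose by 0.21 and Cdkn2b, the TGF-β target p15, by 1.07.

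Promoters of the mitotic genes are shown because these members moved together and share short motifs. The windows run from 250 bases before to 50 after each start in RefSeq for GRCm38.p6, in 5′ to 3′ direction of the gene, and 48 of the 60 genes matched at least 1 of them, 53 windows in all. The cell cycle homology region (CHR), a site of the DREAM complex searched on both strands as TTTGAA or TTTAAA, was in 40 of the 53 windows (75.5%), against 19.4% of the windows of tested genes and 27.6% of all windows. The CCAAT box, bound by the factor NF-Y and searched as CCAAT on both strands, was in 77.4%, against 37.2% and 37.4%. In 49 windows of DNA replication genes the shares were 30.6% and 55.1%. These matches describe the letters only and show neither binding nor a cause. The windows printed were chosen among those of lower members that hold both motifs, so the capitals in each follow from that choice. Members that fell further, such as Aurkb (−1.69) and Birc5 (−1.67), are not printed. The 3 windows below belong to cyclin B2 (Ccnb2, chr9:70421505-70421804, minus strand, log2 change −1.47), the kinesin gene Kif14 (chr1:136467598-136467897, plus strand, −1.42) and the mitotic kinase gene Cdk1 (chr10:69352863-69353162, minus strand, −1.39), and capitals mark the CHR and CCAAT matches on either strand.
Ccnb2: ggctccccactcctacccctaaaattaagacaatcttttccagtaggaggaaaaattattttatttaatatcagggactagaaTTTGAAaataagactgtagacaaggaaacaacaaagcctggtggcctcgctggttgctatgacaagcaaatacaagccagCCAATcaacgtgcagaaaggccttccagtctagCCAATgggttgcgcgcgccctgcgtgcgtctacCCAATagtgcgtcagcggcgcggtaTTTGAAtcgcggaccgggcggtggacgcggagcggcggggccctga
Kif14: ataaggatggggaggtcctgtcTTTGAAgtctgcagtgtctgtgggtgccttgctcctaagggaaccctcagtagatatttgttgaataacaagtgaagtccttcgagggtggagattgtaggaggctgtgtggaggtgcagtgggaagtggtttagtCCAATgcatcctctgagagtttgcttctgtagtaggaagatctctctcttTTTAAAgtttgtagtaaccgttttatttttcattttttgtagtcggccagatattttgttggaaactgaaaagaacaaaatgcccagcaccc
Cdk1: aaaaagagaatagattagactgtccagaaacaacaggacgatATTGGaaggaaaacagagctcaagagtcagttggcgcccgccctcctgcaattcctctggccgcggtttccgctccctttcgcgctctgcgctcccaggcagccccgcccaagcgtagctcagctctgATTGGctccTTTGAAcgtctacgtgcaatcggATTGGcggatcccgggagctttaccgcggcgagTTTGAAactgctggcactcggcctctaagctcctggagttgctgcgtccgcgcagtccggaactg

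Genes of sterol and lipid synthesis were lower. Of 28 cholesterol synthesis and uptake genes 2 were higher and 25 lower, with a median of −0.59, and of 21 fatty acid synthesis genes 17 were lower and none higher. Pmvk, a kinase of the mevalonate pathway, had 19.7, 18.3 and 17.96 CPM with both agents, 25.8, 24.9 and 25.7 CPM with TGF-β1 alone and 45.1, 44.8 and 45.7 CPM in control cells. All 3 groups were apart, with cells given both agents the lowest, −1.27 from control (SE 0.0587, adjusted p = 1.06e-21). Hmgcs1, a synthase early in the pathway, had 458, 431 and 435 CPM with both agents, 486, 492 and 498 CPM with TGF-β1 alone and 788, 797 and 785 CPM in control cells. The order of the groups was the same, and the change from control was −0.84 (SE 0.0243). Lss, which closes the sterol rings, changed by −1.002. Srebf2, the factor that drives this pathway, changed by −0.23, and Scap, its escort, rose by 0.25.

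The Hmgcs1 promoter (chr13:119690101-119690400, plus strand) is printed because it was the 1 window of 24 in this list with the sterol regulatory element searched, TCACNCCAC on either strand. That is 4.17% of the windows, against 1.13% of the windows of tested genes and 1.24% of all, and 20 of the 28 genes matched a window. CCAAT boxes were in 75% of the 24 windows. Capitals mark the sterol element and the CCAAT boxes.
Hmgcs1: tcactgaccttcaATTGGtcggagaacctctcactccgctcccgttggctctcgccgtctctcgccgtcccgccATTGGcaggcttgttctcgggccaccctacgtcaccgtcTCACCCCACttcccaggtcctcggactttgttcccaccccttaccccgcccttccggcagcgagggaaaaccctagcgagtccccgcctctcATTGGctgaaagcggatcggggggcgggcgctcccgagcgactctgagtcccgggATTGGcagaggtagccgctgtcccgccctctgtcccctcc

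In fatty acid synthesis the elongase Elovl6 had 32.1, 29.8 and 32.7 CPM with both agents, 35.7, 35.9 and 38.0 CPM with TGF-β1 alone and 112, 109 and 103 CPM in control cells. Both treated groups were below control, with a change of −1.77 for both agents (SE 0.0481), and the desaturase Scd1 changed by −1.43. Fatty acid oxidation and PPAR genes had 10 higher and 16 lower of 32. The coactivator Ppargc1a changed by −2.01, while Plin2, a coat protein of lipid droplets, rose by 1.26, with means of 1194 CPM with both agents, 887 CPM with TGF-β1 alone and 499 CPM in control cells. Cyp4a12b, a fatty acid hydroxylase, changed by −1.49, a value that is uncertain because it has near-identical copies.

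Of 40 antioxidant genes of the factor NRF2, 2 were higher and 35 lower, with a median of −0.68. Nqo1, a quinone reductase, had 2.19, 2.54 and 2.59 CPM with both agents, 2.101, 3.45 and 2.95 CPM with TGF-β1 alone and 8.99, 10.9 and 10.0 CPM in control cells. Both treated groups overlapped each other and lay below control, with a change of −2.04 for both agents (SE 0.151). Nfe2l2, which encodes NRF2, changed by −0.80, glutathione reductase, Gsr, by −0.74 and Gclc, which starts glutathione synthesis, by −0.52. The glutathione transferases Gstm1, Gstm2 and Gsta3 changed by −1.84, −1.45 and −2.06, with reads possibly shared among copies. Osgin1 and Ftl1 rose by 0.78 and 0.20.

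Glycolysis and hypoxia genes had 5 higher and 28 lower of 37, with a median of −0.47. Slc2a1, the glucose carrier GLUT1, changed by −0.89, the kinase genes Pgk1 and Pfkp by −0.79 and −1.14, and Ldha, lactate dehydrogenase, by −0.61. Vegfa rose by 0.89, with means of 132 CPM with both agents, 166 CPM with TGF-β1 alone and 70.8 CPM in control cells. Nuclear genes of the respiratory chain had 2 higher and 25 lower of 47, none as much as 2-fold, with a median of −0.16. Of the 13 genes encoded by mitochondria 3 were lower and none higher, among them mt-Co3 at −0.11 (SE 0.0213), and scaled by total counts 6 were lower. Serine synthesis genes on the ATF4 list were lower, Phgdh at −0.98 and Psat1 at −1.01, and the whole list had 14 higher and 22 lower of 47, and 9 higher and 32 lower scaled by total counts. Of 28 chaperone genes of the endoplasmic reticulum, 9 were higher and 14 lower, all under 2-fold, and scaled by total counts 4 were higher and 19 lower.

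Inflammatory genes did not share a direction. Of 50 chemokines and cytokines 38 were tested, of which 19 were higher and 10 lower, and of 45 NF-κB subunits, inhibitors and targets 29 were higher and 10 lower. Ccl2, which attracts monocytes, had 52.2, 46.6 and 48.4 CPM with both agents, 223, 216 and 236 CPM with TGF-β1 alone and 17.7, 19.5 and 19.0 CPM in control cells. The groups were apart, with both agents 1.38 above control (SE 0.0560) and −2.19 from TGF-β1 alone. Csf2, the growth factor GM-CSF, had 11.9, 11.1 and 11.3 CPM with both agents, 185, 183 and 196 CPM with TGF-β1 alone and 2.45, 3.08 and 2.82 CPM in control cells, and so stood 2.02 above control (SE 0.106). Csf1 rose by 1.57, and Cxcl10 had 93.7 CPM with both agents, 83.7 CPM with TGF-β1 alone and 17.7 CPM in control cells, a rise of 2.39. Nos2, the inducible nitric oxide synthase, was low with both agents, 1.83, 1.999 and 1.71 CPM, against 0.854, 1.35 and 0.430 CPM in control cells, a rise of 1.004 (SE 0.271, adjusted p = 0.00186). With TGF-β1 alone Nos2 had 16.9, 21.8 and 18.8 CPM, and both agents stood −3.36 from that group. The NF-κB inhibitors Nfkbia and Tnfaip3 rose by 0.98 and 1.21, the costimulatory receptor Cd40 by 2.48 and Ptgs2, cyclooxygenase-2, by 1.41.

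Cxcl1, Cxcl2 and Cxcl5, chemokines that attract neutrophils, lay below control. Cxcl1 had 20.0, 17.4 and 21.2 CPM with both agents, 329, 308 and 363 CPM with TGF-β1 alone and 35.7, 39.6 and 35.4 CPM in control cells. Cells with both agents were the lowest group and those with TGF-β1 alone the highest, and the change from control was −0.93 (SE 0.112, adjusted p = 0.000105). Cxcl2 changed by −0.76, with means of 9.34 CPM with both agents, 212 CPM with TGF-β1 alone and 15.98 CPM in control cells. Cxcl5 had 5.14, 3.67 and 4.90 CPM with both agents, 29.5, 30.2 and 34.0 CPM with TGF-β1 alone and 31.1, 33.0 and 30.5 CPM in control cells. The libraries with TGF-β1 alone and the control libraries overlapped, and the cells with both agents were under both, −2.78 from control (SE 0.0933). Ccl20, a ligand of CCR6 on lymphocytes and dendritic cells, had 28.0, 25.4 and 27.8 CPM with both agents, 164, 154 and 171 CPM with TGF-β1 alone and 184, 187 and 182 CPM in control cells, a change of −2.76 from control. Il33, an alarmin, fell to 0.584 CPM with both agents, against 11.02 CPM in control cells (−4.20). Macrophage and leukocyte markers were also lower with both agents, in the sums given above, which do not cover TGF-β1 alone. The median change of that list from control was −1.31 with both agents and 0.92 with TGF-β1 alone. Lyz2 had 3.35, 2.70 and 3.20 CPM with both agents, 23.0, 19.3 and 23.3 CPM with TGF-β1 alone and 7.34, 8.76 and 7.60 CPM in control cells, while Csf1r overlapped between the treated groups. The part of these markers in the values of both comparisons was not tested.

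Interferon-stimulated genes had 12 higher and 16 lower of 42. Ifit3 had 2.77, 3.78 and 2.92 CPM with both agents, 4.43, 4.11 and 4.77 CPM with TGF-β1 alone and 57.4, 60.3 and 54.6 CPM in control cells. Both treated groups stood below control, with a change of −4.19 for both agents, though Ifit3 and its near copy Ifit3b (−3.91) may share reads. Ifit2 changed by −1.77, while Oasl2, Isg20 and Irf1 rose by 1.35, 0.90 and 0.71. Immediate early and feedback genes had 12 higher and 18 lower of 39. Dusp6, which ends ERK signalling, changed by −1.64 and Spry2 by −1.11, while the related phosphatase Dusp4 rose by 1.38 and Junb by 1.04. Growth factors and their receptors had 27 higher and 14 lower of 52. Pdgfb rose by 1.497, with means of 1134 CPM with both agents, 1319 CPM with TGF-β1 alone and 402 CPM in control cells, Pdgfa by 1.68, Vegfc by 2.13 and Wnt9a by 2.095.

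Genes of protein synthesis showed small differences whose direction depended on scaling. Of 77 cytosolic ribosomal protein genes 13 were higher and 1 lower, which became 2 higher and 22 lower when libraries were scaled by total counts. Translation factors had 20 higher and 7 lower of 49, and 10 higher and 23 lower scaled by total counts; ribosome biogenesis genes had 22 higher and 11 lower of 52, and 6 and 20 so scaled. Heat shock proteins had 13 higher and 9 lower of 34, and 10 and 19 so scaled. None of these genes reached 2-fold. Eif6, which keeps ribosomal subunits apart, had 188, 192 and 204 CPM with both agents, 130.4, 131 and 127 CPM with TGF-β1 alone and 133, 132 and 134 CPM in control cells. It was above both other groups in every library, by 0.55 over control and 0.59 over TGF-β1 alone. Polr1a, the large subunit of RNA polymerase I, rose by 0.30 over control and by 0.68 over TGF-β1 alone, and Bag3, a co-chaperone, rose by 0.47 over control. Of 34 p53 targets 17 were higher and 8 lower, of 34 BCL2 family and death genes 12 were higher and 13 lower, of 37 proteasome subunits 10 were higher and 11 lower and of 43 lysosome and autophagy genes 15 were higher and 20 lower. Scaled by total counts, 3 proteasome subunits were higher and 22 lower, and 9 lysosome and autophagy genes were higher and 24 lower. The autophagy receptor Sqstm1 rose by 0.85 and Bmf, a proapoptotic BH3 protein, by 1.59.

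Keratins, secreted proteins and carriers were among the largest differences from control. Among the 15 largest rises, of called genes that reached 5 CPM and whose libraries did not overlap, Krt16, a keratin of activated epidermis, had 18.02, 18.5 and 17.3 CPM with both agents, 16.5, 15.96 and 14.3 CPM with TGF-β1 alone and 0.683, 0.864 and 0.956 CPM in control cells. Both treated groups stood above control, by 4.40 with both agents (SE 0.143). Wnt11 rose by 4.19, Olfm2 by 3.93, Angpt4, an angiopoietin, by 3.83, and the G protein subunit Gna14 by 3.53. Tnfrsf11b, osteoprotegerin, had 31.1, 28.3 and 32.9 CPM with both agents, 72.6, 70.0 and 73.9 CPM with TGF-β1 alone and 1.99, 1.95 and 2.25 CPM in control cells, which put both agents between the others (3.90 from control). Among the 15 largest falls, Prss35, a secreted serine protease homologue, changed by −5.18, the phosphate carrier Slc34a2 by −4.66, the zinc finger gene Zim1 by −3.82 and the monocarboxylate carrier gene Slc16a5 by −3.38. The symbol St6galnac2 stands for 2 entries, ENSMUSG00000057286 at 3.98 and ENSMUSG00000110170 at −6.66, so its direction is uncertain. Rises of Ifi202b (3.27) and falls of Sprr2g (−4.52) belong to families of near-identical copies and are uncertain too.

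**Figure D3:**
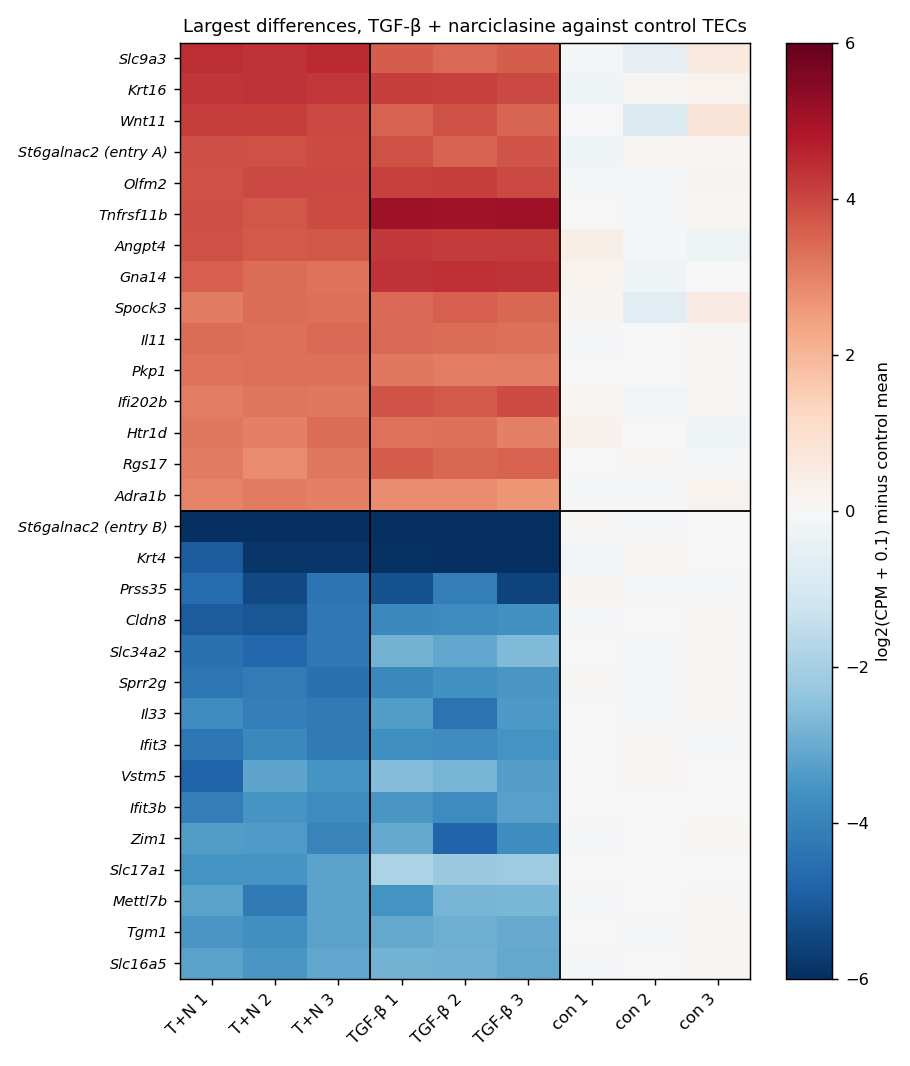
Log2(CPM + 0.1) of the 15 genes with the largest rises (above the line) and the 15 with the largest falls, each row relative to its mean in control TECs, in each library. With both agents (T+N) the largest rise was that of Slc9a3, at 4.79, and the largest falls were those of 1 entry of St6galnac2, at −6.66, and of Krt4, at −6.37.

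Some genes lay outside both other groups. Tgfb1i1, the focal adhesion protein Hic-5, had 49.9, 54.8 and 50.8 CPM with both agents, 25.4, 26.8 and 26.4 CPM with TGF-β1 alone and 24.1, 24.2 and 28.0 CPM in control cells. TGF-β1 alone and control overlapped, and both agents stood 1.03 above control (SE 0.0587) and 0.98 above TGF-β1 alone. Nr1d1, the clock repressor REV-ERBα, had 15.8, 17.8 and 14.3 CPM with both agents, 6.99, 7.86 and 7.35 CPM with TGF-β1 alone and 5.52, 6.54 and 7.08 CPM in control cells, with the same pattern (1.31 above control). Gpr50, an orphan receptor of the melatonin receptor family, had 38.1 CPM with both agents, 17.1 CPM with TGF-β1 alone and 6.80 CPM in control cells, and the semaphorin Sema4f had 25.3 CPM with both agents, 13.0 CPM with TGF-β1 alone and 3.81 CPM in control cells, with both agents highest. Cpa4, a carboxypeptidase, rose by 1.72 over control and 1.33 over TGF-β1 alone, neuronal tubulin Tubb3 by 2.24 and 0.91, and Lims2, an adaptor of integrin-linked kinase, by 0.83 and 0.93. Below both groups, beside Cxcl5 and Ccl20, was Sparcl1, a secreted relative of SPARC, with 1.07, 2.22 and 1.05 CPM with both agents, 12.1, 13.1 and 13.1 CPM with TGF-β1 alone and 5.69, 4.17 and 5.64 CPM in control cells. Its highest library with both agents lay under every other library, at −1.83 from control. Mab21l3 had 7.36 CPM with both agents, 31.8 CPM with TGF-β1 alone and 24.4 CPM in control cells, Cp, the copper carrier ceruloplasmin, had 39.8 CPM with both agents, 108 CPM with TGF-β1 alone and 152 CPM in control cells, and Ly6c1, whose family has near copies, had 1.24 CPM with both agents, 3.42 CPM with TGF-β1 alone and 10.1 CPM in control cells. Between cells with both agents and those with TGF-β1 alone 6921 genes (52.3%) were called, 584 of them at least 2-fold.

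**Figure D4:**
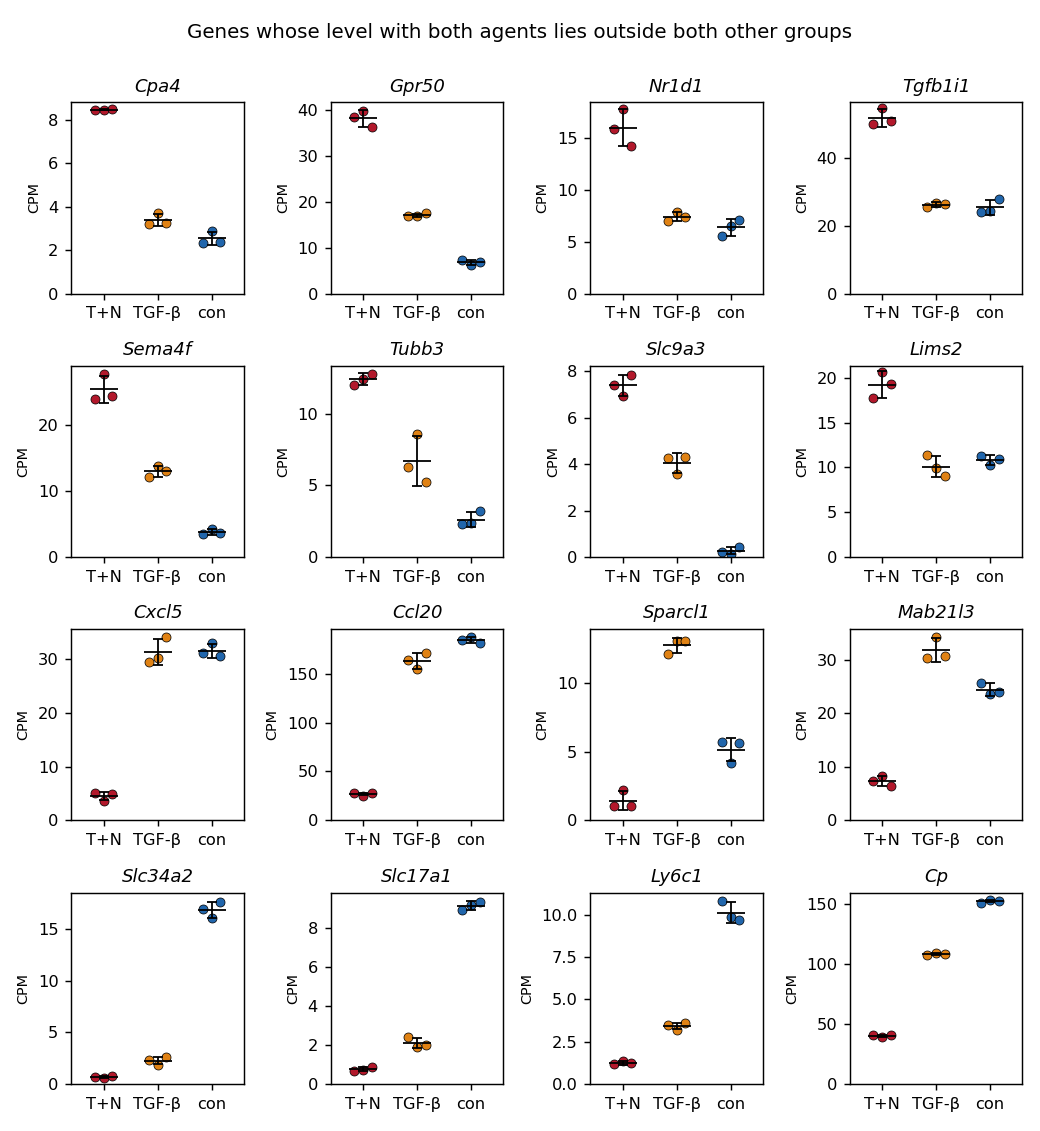
CPM in each TEC library (points), with the group mean and SD (bars), of 16 genes whose level with both agents (T+N) lay outside TGF-β alone and control (con). The first 8 genes are highest and the last 8 lowest with both agents; Cxcl5, Tgfb1i1, Nr1d1 and Lims2 have overlapping libraries in the other two groups.

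The same contrast was made in NRK49F fibroblasts, and an interaction term tested whether TECs and NRK49F differed over 12135 genes matched by symbol. Of these, 6905 (56.9%) differed, 3653 with a higher log2 change in TECs and 3252 with a lower one. Cell kind and species cannot be told apart here. Control NRK49F replicate 2 stood apart in Ccn2, with 87.9, 272 and 86.1 CPM in the 3 control NRK49F libraries. It also did so in other named genes, such as Tnfrsf11b (78.8, 148 and 81.1 CPM), Itgb4 (97.3, 177 and 88.5 CPM) and Mki67 (660, 365 and 656 CPM). In Ccn2 the NRK49F libraries with both agents had 3764, 4512 and 3912 CPM, replicate 2 again being the highest. Without replicate 2 of every NRK49F group, 7120 genes differed. The values of both cell kinds that follow come from 1 fit of all 18 libraries. Acta2 changed by 0.67 (SE 0.146) in TECs and by 6.30 (SE 0.232) in NRK49F, a difference of −5.63 (SE 0.284, adjusted p = 9.08e-10). In the fibroblasts it had 316, 416 and 310.0 CPM with both agents and 2.42, 7.84 and 3.10 CPM in control cells, without overlap. Tagln differed by −6.88 and Ccn2 by −3.70, both smaller in TECs, and Ccn2 by −4.39 without NRK49F replicate 2. Tagln had only 13 counts over the control NRK49F libraries, so the size of its difference is uncertain. Fn1 changed by 2.06 in TECs and by 0.57 in NRK49F, where it had 14656, 14436 and 13420.2 CPM with both agents and 9118, 10825 and 8782 CPM in control cells, so the rise was larger in TECs by 1.49 (SE 0.0788). Smad7 differed by 0.60 and Col1a1 by 0.49, also larger in TECs.

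Several genes went opposite ways. Col3a1 changed by −0.55 in TECs and 0.74 in NRK49F, Cxcl1 by −0.92 and 1.59, Snai2 by 0.72 and −0.99, and Tnfrsf11b by 3.90 and −3.65. Fst changed by −2.88 in TECs and 3.21 in NRK49F, and Ifit3 by −4.19 and 5.65. The Ifit3 value in NRK49F rests on 6 counts over the control libraries, against 338 with both agents, so its size is uncertain. Nqo1 fell in both, with a change of −2.05 in TECs and −3.02 in NRK49F. Differences for Il11 (0.59, SE 0.513, adjusted p = 0.373), Cdh1 (0.53, SE 0.593), Lcn2 (0.25, SE 0.224) and Cdkn1a (−0.09, SE 0.0633) were not called. Cdh1 had 10 counts over the NRK49F libraries with both agents and 10 over control NRK49F, where Il11 also had 10. Krt16 had no count in NRK49F with both agents, against 5.39, 8.66 and 5.22 CPM in control NRK49F, which makes control at least 95.6-fold higher over a floor of 3 counts per group. Havcr1 had no count in NRK49F, and Csf2 had 4 counts over the NRK49F libraries with both agents and 1 over control, so no fold is given for either. Col1a2 was not analysed here in NRK49F.

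**Figure D5:**
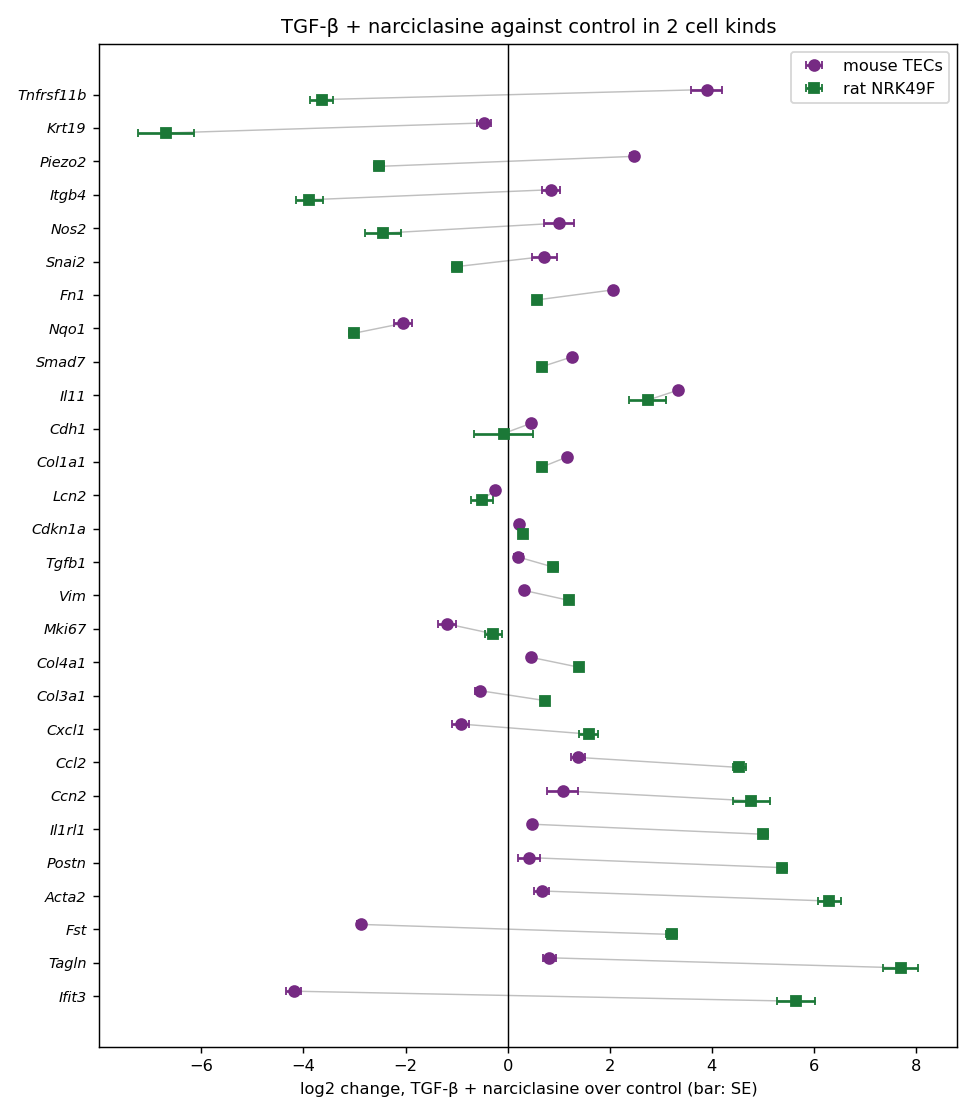
Log2 change with TGF-β and narciclasine over control, with SE, in mouse TECs (circles) and rat NRK49F (squares) for fibrosis, injury and inflammation genes and genes with the largest interaction that had more than 3 counts in each group. Tagln, Acta2 and Ccn2 rise more in NRK49F, Fn1 more in TECs, and Tnfrsf11b, Fst and Ifit3 lie on opposite sides of 0.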

How the data were processed

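RNA with poly(A) tails was sequenced on an Illumina NovaSeq from mouse TECs and rat NRK49F, 3 libraries in each of 3 groups per cell kind, per the labels' protocols. Per the submitters' processing notes the mouse build was mm10, and the tools listed, with no roles, were featureCounts, DESeq2 and HISAT2 2.1.0. The authors deposited raw read counts per gene. Strand handling of the counting is not given in the sources used here. Of 22322 mouse genes 4451 had no count, and 20 symbols had more than 1 entry.

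Counts were tested as deposited with edgeR 4.0.16 (limma 3.58.1, R 4.3.3): genes were filtered by group, libraries scaled by TMM, and the quasi-likelihood test fitted on the 9 TEC libraries together, with Benjamini-Hochberg adjustment over all genes tested and 0.05 as the threshold. SE is the log2 change over the square root of the F statistic. CPM are computed from the counts and the scaled totals, and their mean ± SD is over 3 libraries. The difference between cell kinds was an interaction in 1 fit of all 18 libraries, over genes with the same symbol in both tables. Library totals of 16652016 to 25192716 set the counting precision. Intervals come from the quasi-likelihood fit and include the spread between libraries, and the floor of 3 counts covers counting error only. The alternatives were RLE and total-count scaling, DESeq2 1.42.0, no filter, a filter of 50 counts in 3 libraries, fits of only the libraries compared, a replicate block and leaving out each library.

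Genes named are well-known genes of fibrosis, injury and inflammation, the 15 largest called changes each way at 5 CPM or more without overlap, up to 4 such members of each list, 8 genes each way outside both other groups, 6 each way for the cell kinds, and further list members chosen after their values were seen. The members and lists were chosen with earlier results of these data known. Coordinates are from GENCODE vM21 for GRCm38 and promoters from RefSeq. Some genes of these lists are counted but not reported here by name. Scripts were tested on simulated data. TEC samples with both agents and control TECs that share a replicate number did not deviate together, so no pairing was used. NRK49F samples were not part of that check.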

Additional observations from a re-analysis of the deposited data

Results flagged for a closer look

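The change with both agents over control differed between TECs and NRK49F, by the interaction in edgeR's quasi-likelihood test, for the genes named here, given as the log2 change in TECs minus that in NRK49F. It was higher in TECs for Tnfrsf11b (7.54), Krt19 (6.23), Piezo2 (5.00), Itgb4 (4.74), Nos2 (3.45), Snai2 (1.71), Fn1 (1.49), Nqo1 (0.97), Smad7 (0.60) and Col1a1 (0.49). It was lower in TECs for Ifit3 (−9.84), Tagln (−6.88), Fst (−6.10), Acta2 (−5.63), Postn (−4.97), Il1rl1 (−4.53), Ccn2 (−3.70), Ccl2 (−3.15), Cxcl1 (−2.51), Col3a1 (−1.29), Col4a1 (−0.95), Mki67 (−0.91), Vim (−0.88) and Tgfb1 (−0.68). Some of these rest on few counts in NRK49F, so their size is uncertain. Ifit3 had 6 and Tagln 13 over the control libraries, and Krt19 had 8 and Nos2 22 over those with both agents. In the fit of all 18 libraries Krt19 was lower than control in both cell kinds, with changes of −0.46 in TECs and −6.69 in NRK49F. Piezo2 changed by 2.48 in TECs and −2.52 in NRK49F, Itgb4 by 0.85 and −3.89, and Nos2 by 1.01 and −2.44. Without NRK49F replicate 2 the difference was −6.16 for Acta2, −7.41 for Tagln and −4.39 for Ccn2. Mouse epithelium and rat fibroblasts differ in species as well as cell kind, and these cannot be told apart. Groups of 3 libraries are too small for a test of outlying samples.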

How the results depend on the processing

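For both agents against control the count of calls ranged from 7363 (DESeq2) to 8661 (no filter), and for at least 2-fold from 1100 (filter of 50 counts in 3 libraries) to 1938 (no filter). Leaving out 1 library gave 7763 to 7985 calls, 3860 to 4123 higher, 3745 to 3963 lower and 1548 to 1633 at least 2-fold. Against TGF-β1 alone it gave 6296 to 6576 calls, 3105 to 3270 higher, 3107 to 3334 lower and 615 to 624 at least 2-fold, and the stricter filter left 358 at least 2-fold, with fewer genes tested. Between cell kinds it gave 6592 to 7042 calls, 3249 to 3662 higher, 3104 to 3408 lower and 2284 to 2367 at least 2-fold. No called gene among those followed changed direction under the alternatives run. Differences between cell kinds that were not called turned when 1 library was left out, ranging from −0.17 to 1.07 for Cdh1, −1.65 to 1.64 for Csf2 and −0.10 to 0.51 for Lcn2. Counts of list members moved by over 1.5 times in 62 of the values recomputed, and the majority direction of ribosomal protein, translation factor, ribosome biogenesis, heat shock and endothelial marker genes turned under total-count scaling. Calls of genes followed that ended were those of Tgfb1, Snai2, Rpl10, Rpl23a, mt-Nd5 and mt-Co1 against control. The cause was not tested. Replicate numbers did not pair TECs with both agents and control TECs. Correlations of their deviations were 0.0109, −0.0824 and 0.0128, each number's best match being 2, 3 and 2. NRK49F samples were not checked this way, and control NRK49F replicate 2 stood apart in several genes. With a replicate block 8233 genes were called against control, 6766 against TGF-β1 alone and 6898 between cell kinds. Leaving NRK49F replicate 2 out, chosen after seeing the data, gave 7120.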
